A study of Rattus norvegicus with 9 samples.

Results

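The 10 genes described here carry the insulin signal in the hepatocyte, from the receptor through its docking proteins and the kinase Akt to the FoxO transcription factors: Insr, Irs1, Irs2, Pik3r1, Akt1, Akt2, Foxo1, Foxo3, Foxo4 and Grb10. They were taken by name, as the transcript clusters of the array whose annotation gives that single symbol. All 10 were found, each on 1 cluster, among 22098 genes with a cluster of their own and 68842 clusters in all. The arrays read liver RNA of male Wistar rats, obtained at 6 to 8 weeks of age, in 3 groups of 3 pools, and each pool mixed RNA of 3 rats. The T2D treated rats had diet- and streptozotocin-induced type 2 diabetes and received 28 mg/kg of gamma conglutin (Cγ), a lupin seed protein, with 20 mg/kg of the lupin alkaloid lupanine by gavage daily for 7 days. The T2D control rats had the same high-fat diet for 4 weeks, then 1 low-dose injection of streptozotocin, a toxin of pancreatic beta cells. The diet was continued after the injection. These rats were gavaged with the saline vehicle alone. The healthy control rats had neither the diet nor streptozotocin and were given the same vehicle. In this model insulin is partly lost as well as less effective, and the parts of diet, toxin and high glucose cannot be told apart. The labels also give Trizol for the T2D livers and Buffer RLT for the healthy livers, so the lysis reagent changes with the disease and the parts of both in any difference from healthy livers cannot be told apart.

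Insulin binding switches on the receptor kinase, which marks the docking proteins Irs1 and Irs2, and these recruit PI3-kinase through its regulatory subunit, encoded by Pik3r1. The lipid made by PI3-kinase brings Akt to the membrane, where it is activated, and Akt then phosphorylates the FoxO factors and keeps them out of the nucleus. In the fasting liver, where insulin is low, FoxO proteins enter the nucleus and switch on genes of glucose output, and Irs2 and Insr are themselves known FoxO targets. Most of this control acts on proteins, and the arrays read transcripts alone.

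The values are log2 signals, in which a difference of 1 is 2-fold, and 76.6% to 76.9% of the clusters on each array lay under 5, close to background. Of the members, 9 averaged over 5 on the 9 arrays and Grb10 lay below. Array medians ran from 3.06 to 3.27. The 23 background probe sets averaged between 2.85 and 2.94 on the treated arrays, between 2.80 and 2.85 on the T2D control arrays and between 3.35 and 3.72 on the healthy arrays. Healthy pool 8 had the highest of these and received the lowest weight when limma estimated array quality (0.18, next to 0.252 for healthy pool 9 and 1.28 to 2.15 for the other 7). Liver identity was checked with 8 hepatocyte markers, which averaged from 9.41 (Hnf4a) to 12.68 (Alb, albumin) apart from Serpina1 at 5.89. The 4 markers of fat and muscle averaged from 1.95 (Adipoq) to 4.73 (Ckm). Groups were compared with limma on all 9 arrays, and a gene is called, or said to have risen or fallen, at a p under 0.05 after Benjamini-Hochberg adjustment over all 68842 clusters. The error in each test is that between pools, each an average of 3 rats, and not that between single rats. In pieces of whole liver, fewer cells of a type and less RNA per cell cannot be told apart.

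Against healthy livers, T2D control livers had more Irs2, Pik3r1, Foxo1 and Foxo3 transcript and less Foxo4, while Insr, Irs1, Akt1, Akt2 and Grb10 were not called. Irs2 had the largest of these differences, 2.71-fold. Of the 10 members 4 rose, where 12.4% of all clusters did, and 1 fell, where 22.6% of all clusters did. Most clusters lie near background, and of the 8575 genes with 1 symbol and a mean of at least 5, the range of 9 of the members, 31% rose and 24.7% fell, so the 4 that rose are near the share of genes at that level. The median over the members was 0.14 log2, over all clusters -0.12 and over those 8575 genes 0.03. In treated against T2D control livers 0 of 10 members passed the adjusted test with limma, against 0.00291% of all clusters that were higher and 0.0639% that were lower. At an unadjusted p under 0.05 Irs2 alone of the 10 differed, where 5.13% of all clusters did. Treated livers still differed from healthy livers in 3 members. Pik3r1 and Foxo3 rose, where 11.1% of all clusters and 30.7% of the 8575 genes did, and Foxo4 fell, where 23.1% of all clusters and 23.3% of those genes did.

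**Figure D1:**
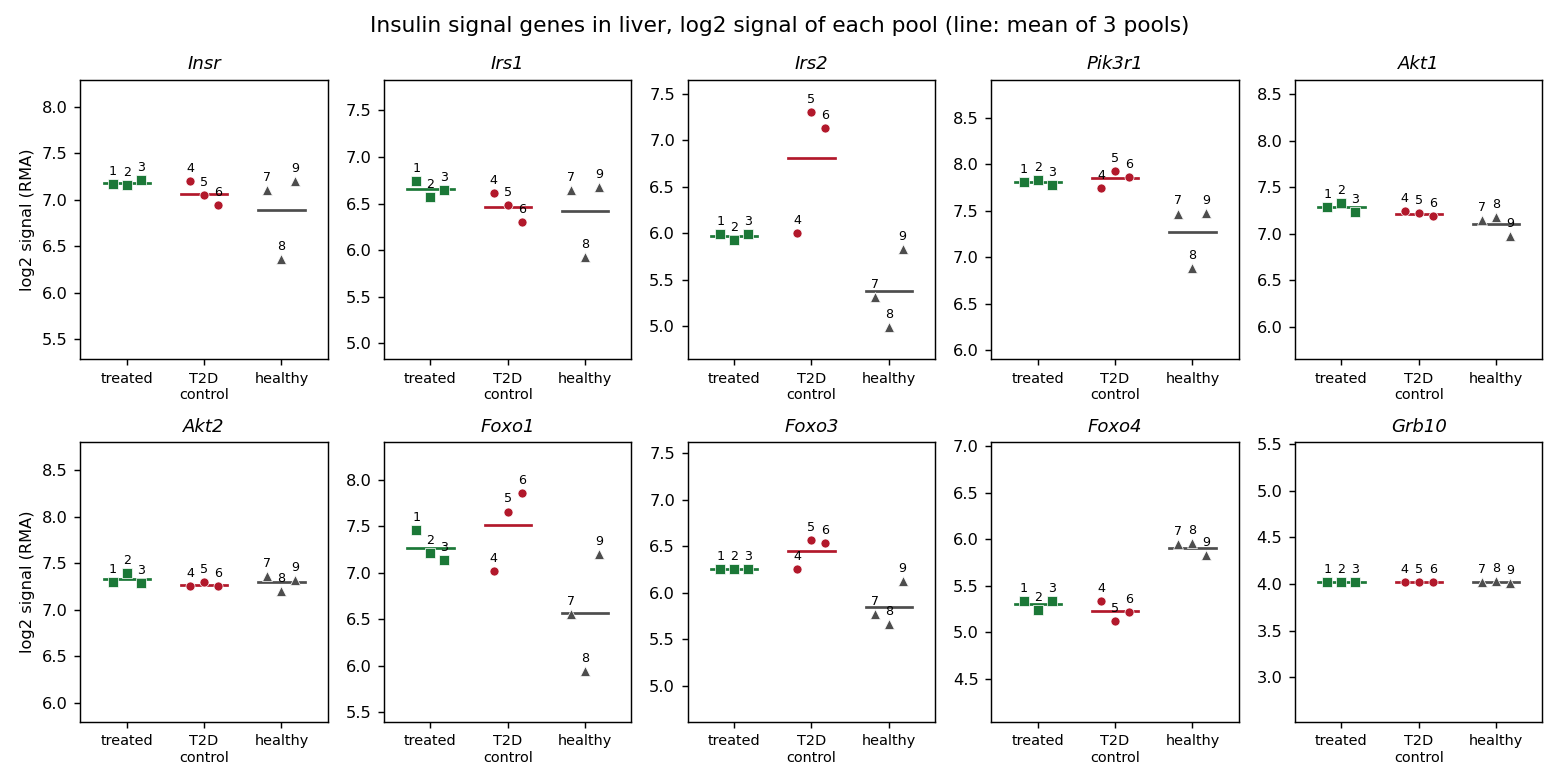
Each panel shows 1 gene, with the log2 signal (RMA) of every pool on the vertical axis, the pool number above each point and a line at the mean of 3 pools, for treated, T2D control and healthy livers. Axes span at least 3 log2 units and differ between panels, so heights are not to be compared across genes. Irs2 and Foxo3 lay higher in T2D control pools 5 and 6 than in T2D control pool 4, which sat at the treated level, and healthy pool 8 was lowest of the 9 for Insr, Irs1, Irs2, Pik3r1, Foxo1 and Foxo3.

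Insr encodes the insulin receptor itself. Its log2 signals were 7.17, 7.16 and 7.21 in treated pools, 7.20, 7.05 and 6.94 in T2D control pools and 7.10, 6.36 and 7.21 in healthy pools. The groups overlapped throughout, with healthy pool 8 alone far below the rest. T2D control livers differed from healthy ones by 0.17 log2 (95% interval -0.27 to 0.62, adjusted p = 0.493, limma), a value that was -0.09 without healthy pool 8, and treated livers differed from T2D control livers by 0.12 (95% interval -0.33 to 0.56, adjusted p = 1). Treated livers differed from healthy ones by 0.29 (95% interval -0.16 to 0.74, adjusted p = 0.259).

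The promoter of Insr is shown because it holds the core of the FoxO recognition sequence, and those of Igfbp1 and G6pc1 because both are textbook FoxO targets of the liver and moved in opposite directions in the T2D control livers. Igfbp1 encodes a secreted protein that binds insulin-like growth factors, and G6pc1 the enzyme that releases free glucose. The windows run from 250 bases before the start site to 50 after it, are written 5′ to 3′ on the gene's strand, and come from RefSeq on build GRCr8: chr12:6128754-6129053 on the minus strand for Insr, chr14:86261027-86261326 on the plus strand for Igfbp1 and chr10:86807409-86807708 on the plus strand for G6pc1. Capitals mark the matches to GTAAACA (the FoxO core) or CAAAACA (the insulin response core) on either strand.
Insr: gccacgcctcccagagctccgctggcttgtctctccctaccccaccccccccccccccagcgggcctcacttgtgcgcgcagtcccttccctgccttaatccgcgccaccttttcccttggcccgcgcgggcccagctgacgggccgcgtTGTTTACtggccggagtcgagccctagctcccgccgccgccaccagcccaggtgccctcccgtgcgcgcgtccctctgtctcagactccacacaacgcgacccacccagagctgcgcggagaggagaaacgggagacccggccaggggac
Igfbp1: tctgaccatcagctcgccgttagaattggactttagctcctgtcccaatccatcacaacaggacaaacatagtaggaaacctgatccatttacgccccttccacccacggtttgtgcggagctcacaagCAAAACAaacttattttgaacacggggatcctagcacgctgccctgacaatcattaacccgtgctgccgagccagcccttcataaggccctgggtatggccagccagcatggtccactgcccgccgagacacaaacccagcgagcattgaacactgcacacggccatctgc
G6pc1: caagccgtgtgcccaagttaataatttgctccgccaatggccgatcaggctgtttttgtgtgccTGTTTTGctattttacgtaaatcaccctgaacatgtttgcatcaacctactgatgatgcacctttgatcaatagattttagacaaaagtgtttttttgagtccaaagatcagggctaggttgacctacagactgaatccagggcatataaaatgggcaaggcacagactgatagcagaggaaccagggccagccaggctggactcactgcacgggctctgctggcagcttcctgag
The FoxO core lay 100 bases before the Insr start site, on the minus strand of the gene. The insulin response core lay 121 bases before the Igfbp1 start on the plus strand and 186 bases before the G6pc1 start on the minus strand. Of 33469 promoter windows of the same length, 3.78% hold GTAAACA and 6.28% hold CAAAACA on either strand. Promoters of 8 of the 10 members were matched, and Irs2 and Foxo3 were not among them. In the windows of the other 7 members neither core was found on either strand. The windows of the FoxO targets Pck1, Ppargc1a and Pdk4 were searched as well, and neither core was found in them. The cAMP response element, searched as TGACGTCA and held by 1.83% of all windows, was in none of the 8 member windows. The E-box, searched as CACGTG and held by 6.42%, was in none of these 8 either. The window of Ppargc1a held the cAMP response element. The share of G and C was 79.7% in the window of Grb10, 75.3% in that of Pik3r1, 75% in that of Foxo1, 71.3% in that of Insr, 70.3% in that of Irs1, 60.3% in that of Foxo4, 56% in that of Akt1 and 49.7% in that of Akt2, next to a median of 51.7% over all windows.

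Irs1, the docking protein that carries much of the signal after feeding, was not called in any comparison, and neither was the receptor. Treated pools had 6.74, 6.57 and 6.64, T2D control pools 6.61, 6.48 and 6.30, and healthy pools 6.65, 5.92 and 6.68. Healthy pool 8 was again the low one, and the other 8 pools spanned less than 0.5 log2. The T2D control livers differed from the healthy ones by 0.05 log2 (95% interval -0.39 to 0.48, adjusted p = 0.855), and by -0.20 without healthy pool 8. The treated livers differed from the T2D control ones by 0.19 (95% interval -0.25 to 0.62, adjusted p = 1) and from the healthy ones by 0.24 (95% interval -0.20 to 0.67, adjusted p = 0.336), the second of these -0.01 without healthy pool 8.

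Irs2, the docking protein whose gene is switched on in the fasted liver, had the largest difference of the members in T2D control against healthy livers. Its log2 signals were 5.99, 5.93 and 5.99 in treated pools, 6.01, 7.30 and 7.13 in T2D control pools and 5.31, 4.99 and 5.83 in healthy pools. All T2D control pools lay above all healthy pools, but T2D control pool 4 was barely above the highest treated pool. The share of all clusters so separated from healthy pools was not counted, for Irs2 or for the genes below. The rise in T2D control over healthy livers was 1.44 log2 (SE 0.33, adjusted p = 0.0118), which is 2.71-fold. Irs2 alone of the 10 also passed the study's own threshold of over 2-fold at an unadjusted p under 0.05. In the same comparison 2848 of 68842 clusters passed it, and 714 of the 8575 genes with a mean of at least 5. Irs2 stayed called in all 18 alternative settings, with differences between 1.19 and 1.84 log2.

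In treated livers Irs2 averaged 5.97 ± 0.04, against 6.81 ± 0.70 in T2D control livers (SD, n = 3 pools each). The difference was -0.84 log2 (SE 0.33, 95% interval -1.60 to -0.09, unadjusted p = 0.0328, adjusted p = 0.872 with limma). All treated pools lay below all T2D control pools, which holds for 8.99% of all clusters, while 5.27% of all clusters had every treated pool above. Treated pools 1 and 3 held the same value to the last deposited digit, which narrows the SD of the treated pools. Without T2D control pool 4 the difference was -1.25 log2 (adjusted p = 0.0982), without pool 5 it was -0.60 and without pool 6 it was -0.68, both with an adjusted p of 1. Against healthy livers the treated pools were higher by 0.59 log2 (95% interval -0.16 to 1.35, adjusted p = 0.18).

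Pik3r1 encodes the regulatory subunit that ties PI3-kinase to the Irs proteins. Treated pools had 7.81, 7.83 and 7.78, T2D control pools 7.75, 7.93 and 7.86, and healthy pools 7.47, 6.88 and 7.48. All 6 diabetic pools lay above all 3 healthy ones, a split whose share over all clusters was not counted. It rose by 0.57 log2 in T2D control livers (SE 0.15, adjusted p = 0.0188) and by 0.53 in treated livers (SE 0.15, adjusted p = 0.026), both against healthy. Between treated and T2D control livers the difference was -0.04 (95% interval -0.38 to 0.29). The rise in T2D control livers was not called with only those 2 groups in the fit (adjusted p = 0.0604), without T2D control pool 5 (0.0667) or without pool 6 (0.0563), and that in treated livers was not called with only those 2 groups (0.0682) or without treated pool 1 (0.0672), 2 (0.0764) or 3 (0.0676).

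Akt1 and Akt2 encode the kinases at the centre of the pathway, and Akt2 is the form most tied to glucose control. Akt1 had 7.29, 7.33 and 7.23 in treated pools, 7.24, 7.22 and 7.19 in T2D control pools and 7.15, 7.18 and 6.98 in healthy pools. Akt2 had 7.30, 7.39 and 7.29 in treated pools, 7.25, 7.30 and 7.26 in T2D control pools and 7.36, 7.20 and 7.32 in healthy pools. Both spanned little, 0.35 log2 for Akt1 and 0.19 for Akt2 over all 9 arrays. For Akt2 the T2D control livers differed from healthy ones by -0.03 log2 (95% interval -0.16 to 0.11), and the treated livers from T2D control ones by 0.06 (95% interval -0.08 to 0.20). Differences beyond 0.2 log2 lay outside both intervals at the reported scaling. The first was -0.18 and called lower with quantile normalization (adjusted p = 0.0434, limma), and 0.09 with arrays centred on the median of all clusters. Akt1 was higher by 0.18 in treated than in healthy livers (95% interval 0.03 to 0.33, adjusted p = 0.0619) and by 0.11 in T2D control than in healthy livers (adjusted p = 0.193). These small values changed with the scaling. With arrays centred on the median of all clusters Akt1 was called higher in both diabetic groups (0.30 log2, adjusted p = 0.00673, in treated livers and 0.23 log2, adjusted p = 0.0214, in T2D control livers, against healthy), and with quantile normalization the T2D control difference of Akt1 was -0.03. Akt1 in treated livers was also called over clusters with 1 symbol (0.0358) and without healthy pool 8 (0.0369).

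**Figure D2:**
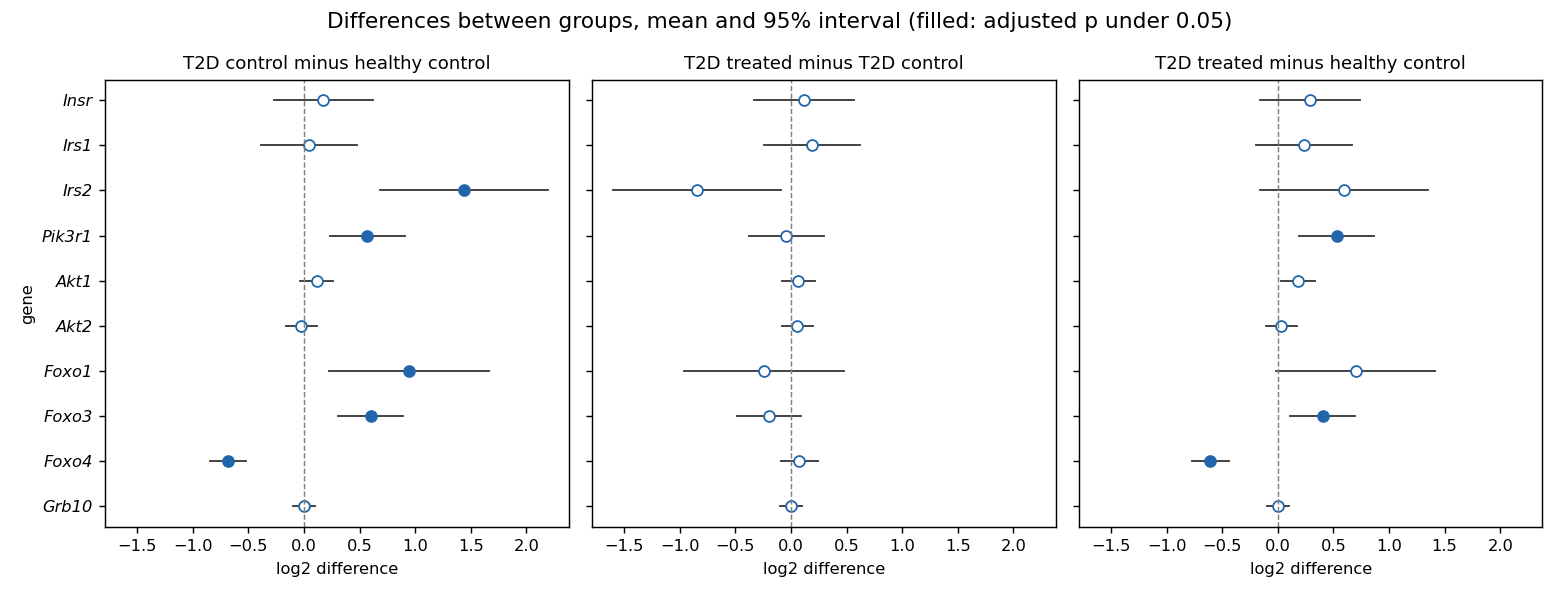
Points give the log2 difference between group means for each member and lines its 95% interval (3 pools per group), with filled points for an adjusted p under 0.05, in T2D control minus healthy, treated minus T2D control and treated minus healthy. Irs2, Pik3r1, Foxo1 and Foxo3 are filled to the right and Foxo4 to the left in the first panel, none is filled in the second, and Pik3r1, Foxo3 and Foxo4 are filled in the third.

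The FoxO factors differed among themselves in direction. Foxo1, the main FoxO of glucose output in the liver, had 7.46, 7.21 and 7.13 in treated pools, 7.02, 7.66 and 7.85 in T2D control pools and 6.56, 5.95 and 7.20 in healthy pools. The groups overlapped, since T2D control pool 4 lay below healthy pool 9. Foxo1 rose by 0.94 log2 in T2D control livers against healthy (SE 0.31, adjusted p = 0.0475), 1.92-fold, a value just inside the threshold. It was lost with only those 2 groups in the fit (adjusted p = 0.108), with quantile normalization (0.0785), and without treated pool 1 (0.0668), 2 (0.0718) or 3 (0.0699), T2D control pool 5 (0.132) or 6 (0.142), or healthy pool 7 (0.103) or 8 (0.134). Without healthy pool 8 the difference was 0.63 log2. Treated livers stood at 7.27 ± 0.17, T2D control livers at 7.51 ± 0.44 and healthy livers at 6.57 ± 0.63 (SD, n = 3 pools each). The treated livers differed from the T2D control ones by -0.24 (95% interval -0.96 to 0.48, adjusted p = 1) and from healthy ones by 0.70 (95% interval -0.02 to 1.42, adjusted p = 0.112), and the difference from healthy was called in 1 of 18 settings, without healthy pool 9 (adjusted p = 0.02).

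Foxo3, which shares many targets with Foxo1, read 6.25 in all 3 treated pools and in T2D control pool 4, 6.57 and 6.53 in T2D control pools 5 and 6, and 5.77, 5.66 and 6.13 in healthy pools. The 4 equal values were the same to the last deposited digit, so the spread of the treated pools was 0 there and the SE rests on limma's pooling across groups and clusters. Foxo3 rose in T2D control livers against healthy by 0.60 log2 (SE 0.13, adjusted p = 0.00839) and was called in all 18 alternative settings. In treated livers against healthy the rise was 0.40 log2 (SE 0.13, adjusted p = 0.0397), called in 8 of 18 settings. Its adjusted p was 0.0647 with only those 2 groups in the fit, 0.0811 with quantile normalization, 0.0553 with centring over the brighter clusters, and 0.0909, 0.0986 and 0.0996 without treated pools 1, 2 and 3, 0.0529 and 0.058 without T2D control pools 5 and 6, and 0.103 and 0.113 without healthy pools 7 and 8. Treated minus T2D control was -0.20 log2 (95% interval -0.49 to 0.09, adjusted p = 1).

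Foxo4 ran the other way. Its log2 signals were 5.34, 5.24 and 5.34 in treated pools, 5.34, 5.12 and 5.22 in T2D control pools and 5.95, 5.96 and 5.83 in healthy pools. Every diabetic pool lay below every healthy pool, a split whose share over all clusters was not counted. Foxo4 fell by 0.68 log2 in T2D control livers (SE 0.072, adjusted p = 0.000407), a linear change of -37.7%, and by 0.61 in treated livers (SE 0.072, adjusted p = 0.000679), both against healthy. Both calls held in all 18 alternative settings, with differences between -0.81 and -0.57 in T2D control and between -0.71 and -0.48 in treated livers. Treated minus T2D control was 0.08 (95% interval -0.09 to 0.24). The background probes were also lower on the diabetic arrays, as given above, and the difference of Foxo4 in T2D control against healthy livers was -0.57 log2 with the arrays centred on all clusters and -0.81 with the arrays centred on the brighter clusters.

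Grb10, an adaptor that binds the activated receptor and dampens its signal, could not be read here. Its log2 signal was 4.02 in 7 of 9 arrays to the last deposited digit, and all 9 lay within 0.014 of each other. Such a value carries no information on a difference between groups.

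In order of mean level over the conditions, Irs2, Foxo1 and Foxo3 stood highest in T2D control, intermediate in treated and lowest in healthy livers, Foxo4 highest in healthy livers, and Pik3r1 about level in the 2 diabetic groups. The neighbours treated and T2D control did not differ beyond their spread by the adjusted test for any of the 10. T2D control and treated livers are each compared with the same healthy arrays, so the 2 comparisons are not independent of each other.

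**Figure D3:**
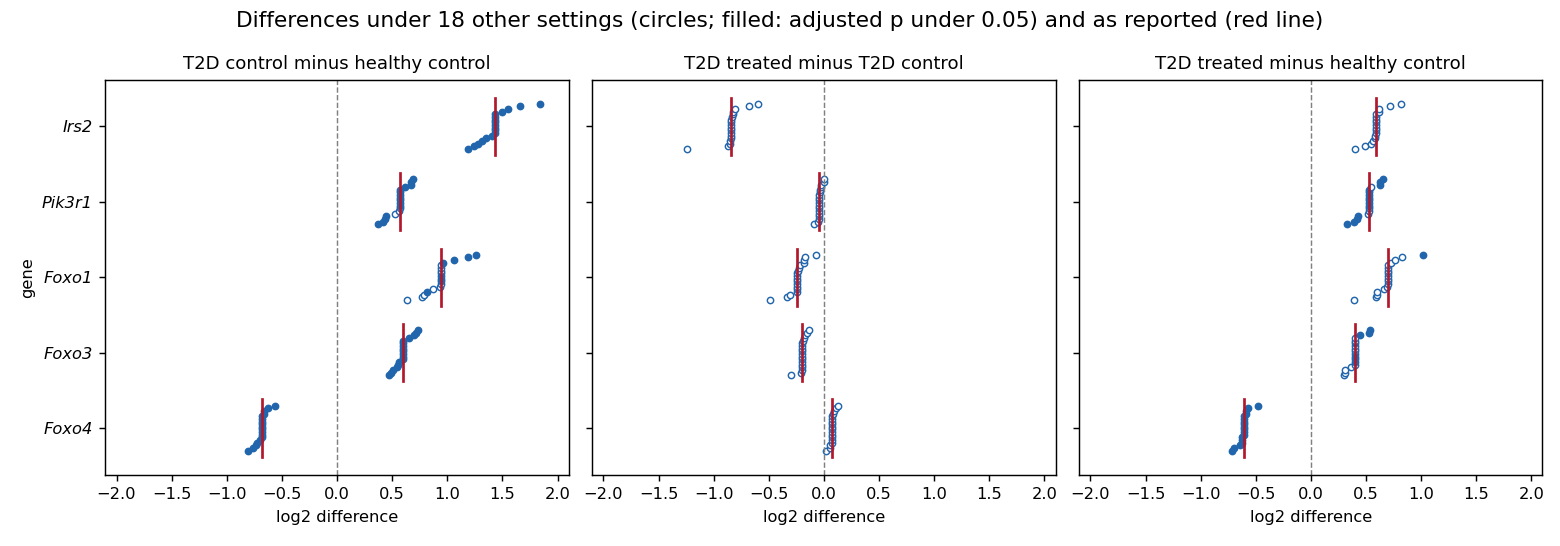
Log2 differences of the 5 called members as reported (red line) and under 18 other settings (circles, filled where the adjusted p is under 0.05), in the same 3 comparisons. Irs2, Foxo3 and Foxo4 keep filled circles throughout in T2D control minus healthy, Foxo1 and Pik3r1 do not, and no circle is filled in treated minus T2D control.

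Around the members, 74 other genes of the pathway were read from 6 lists. In T2D control against healthy livers 27 rose and 14 fell, near the shares of 31% and 24.7% given above for the 8575 genes with a mean of at least 5 (median 0.23 log2, next to -0.12 over all clusters and 0.03 over those genes). In treated against T2D control livers 0 were called with limma. At an unadjusted p under 0.05, 15 of the 74 differed (median over the 74 of 0.03), where 5.13% of all clusters did. That share was not counted for the 8575 genes, and the lists were chosen with earlier results of these data known. In treated against healthy livers 31 rose and 12 fell (median 0.25), next to 30.7% and 23.3% of the 8575 genes (median 0.04). The counts of the single lists below are to be read beside these shares.

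Of 9 other genes of PI3-kinase, the kinase PDK1 and the Akt-activating complex mTORC2, 5 rose and 1 fell in T2D control against healthy livers. Rictor, a subunit of mTORC2, rose by 1.07 log2 (SE 0.20, adjusted p = 0.00455), and Pik3cd, the catalytic subunit best known from white blood cells, by 0.75 (SE 0.078, adjusted p = 0.000404). Pik3cg, the other catalytic form of white blood cells, rose by 0.50 (adjusted p = 0.000867). Its signal was close to background, 3.84 in T2D control livers and 3.34 in healthy livers. Pik3r2, a second regulatory subunit, fell by 0.39 (adjusted p = 0.00198). Markers of some other cells rose in the same comparison, where 31% of the 8575 genes with a mean of at least 5 did. Of the macrophage and Kupffer cell markers 6 of 8 rose and 0 fell. The log2 of their summed linear signal was 10.92 to 11.20 in treated pools, 10.94 to 11.21 in T2D control pools and 10.13 to 10.36 in healthy pools. Among them, Clec4f of Kupffer cells differed by -0.24 log2 in T2D control livers, not called, and fell by 0.57 in treated livers (adjusted p = 0.00728, limma), both against healthy. Endothelial markers rose in 6 of 6 (10.25 to 10.40 in T2D control pools, 9.36 to 9.75 in healthy pools) and stellate cell markers in 6 of 7 (9.52 to 9.63 in T2D control pools, 8.65 to 8.80 in healthy pools). Hepatocyte markers rose in 4 of 8 and fell in 1. Of the T, B and NK cell markers 1 of 4 rose, and of the neutrophil markers 0 of 3. Cholangiocyte markers rose in 0 of 4 and fell in 1, and those of fat and muscle rose in 0 of 4 and fell in 3. The part of these cells in the differences of the pathway genes was not tested.

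The brakes on the signal moved both ways, 5 higher and 2 lower of 17 in T2D control against healthy livers. Grb7, a relative of Grb10, had 6.02, 5.95 and 5.95 in treated pools, 5.63, 5.43 and 5.32 in T2D control pools and 6.43, 6.50 and 6.37 in healthy pools. The 3 groups did not overlap, and 5.27% of all clusters had every treated pool above every T2D control pool. Grb7 fell by 0.97 log2 in T2D control livers against healthy (SE 0.083, adjusted p = 0.000161), and in treated minus T2D control livers it differed by 0.51 (SE 0.083, adjusted p = 0.107). Ptpn1, the phosphatase that removes the marks of the activated receptor, rose by 0.65 (SE 0.084, adjusted p = 0.000988), and Grb14, a further receptor inhibitor, by 0.43 (SE 0.064, adjusted p = 0.00186). Trib1, a pseudokinase, rose by 1.03 (SE 0.17, adjusted p = 0.00302), and its mean in treated livers lay 0.65 below that in T2D control livers (adjusted p = 0.44).

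Among 10 docking and adaptor proteins 3 rose and 1 fell in T2D control against healthy livers. Cbl, a ubiquitin ligase that acts on activated receptors, rose by 1.25 log2 (SE 0.12, adjusted p = 0.000247), Shc1 by 0.48 (adjusted p = 0.00391) and Ptpn11, a phosphatase that binds docking proteins, by 0.50 (adjusted p = 0.0139, and 0.0523 without T2D control pool 5). Irs3, a docking protein of rodents, fell by 0.70 (adjusted p = 0.00092) at a signal of 3.19 in T2D control livers and 3.89 in healthy livers, close to background. Of 13 Akt substrates and later steps 7 rose and 3 fell. Acly, the Akt substrate that makes acetyl-CoA for fat and cholesterol synthesis, fell by 1.56 (SE 0.21, adjusted p = 0.0012). Bad, a cell death factor that Akt holds back, fell by 0.39 (adjusted p = 0.00197) at a signal of 4.26 in T2D control livers and 4.65 in healthy livers, close to background. Ywhab, a 14-3-3 protein that binds phosphorylated Akt substrates, rose by 0.48 (adjusted p = 0.00188) and Crtc2, a coactivator of CREB in glucose output, by 0.41 (adjusted p = 0.00198). Tsc2, a brake on mTORC1 that Akt releases, rose by 0.54 in T2D control livers (adjusted p = 0.00248) and by 0.61 in treated livers (adjusted p = 0.00144), both against healthy.

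The FoxO targets moved both ways, with 6 higher and 5 lower of 17 in T2D control against healthy livers. Igfbp1 had 9.72, 9.05 and 9.65 in treated pools, 10.15, 11.19 and 10.34 in T2D control pools and 8.53, 8.14 and 8.60 in healthy pools. The 3 groups did not overlap, and 8.99% of all clusters had every treated pool below every T2D control pool. Igfbp1 rose by 2.14 log2 in T2D control livers against healthy (SE 0.29, adjusted p = 0.00123), 4.40-fold. Treated livers differed from T2D control ones by -1.09 (SE 0.29, adjusted p = 0.449) and rose over healthy ones by 1.05 (SE 0.29, adjusted p = 0.0241), a call lost in 5 of 18 settings: with quantile normalization (0.0532), with array weights (0.0548), and without treated pool 1 (0.0777) or 3 (0.0822) or healthy pool 8 (0.0806).

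Ppargc1a, the coactivator of FoxO1 in glucose output, had 5.10 in all 3 treated pools and in T2D control pool 4, 6.66 and 7.29 in T2D control pools 5 and 6, and 4.25, 4.22 and 4.90 in healthy pools. The equal values were identical to the last digit, as for Foxo3. It rose by 1.89 log2 in T2D control against healthy livers (SE 0.48, adjusted p = 0.0168), lost with only those 2 groups in the fit (0.0567) and without T2D control pool 5 (0.0621), healthy pool 7 (0.0519) or healthy pool 8 (0.0566). Pdk4, the kinase that shuts pyruvate out of the citric acid cycle, had 7.16, 6.92 and 7.39 in treated pools, 7.83, 8.78 and 8.48 in T2D control pools and 7.34, 7.00 and 7.54 in healthy pools. The treated and healthy pools overlapped, and all T2D control pools lay above both. Of all clusters, 8.99% had every treated pool below every T2D control pool, and the share so separated from healthy pools was not counted. Pdk4 rose by 1.07 in T2D control against healthy livers (SE 0.25, adjusted p = 0.0117). Treated minus T2D control was -1.21 for Pdk4 (adjusted p = 0.216) and -1.25 for Ppargc1a (adjusted p = 0.851). Without T2D control pool 4 both were called lower in treated livers, at -1.48 (adjusted p = 0.0429) and -1.88 (adjusted p = 0.0419).

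**Figure D4:**
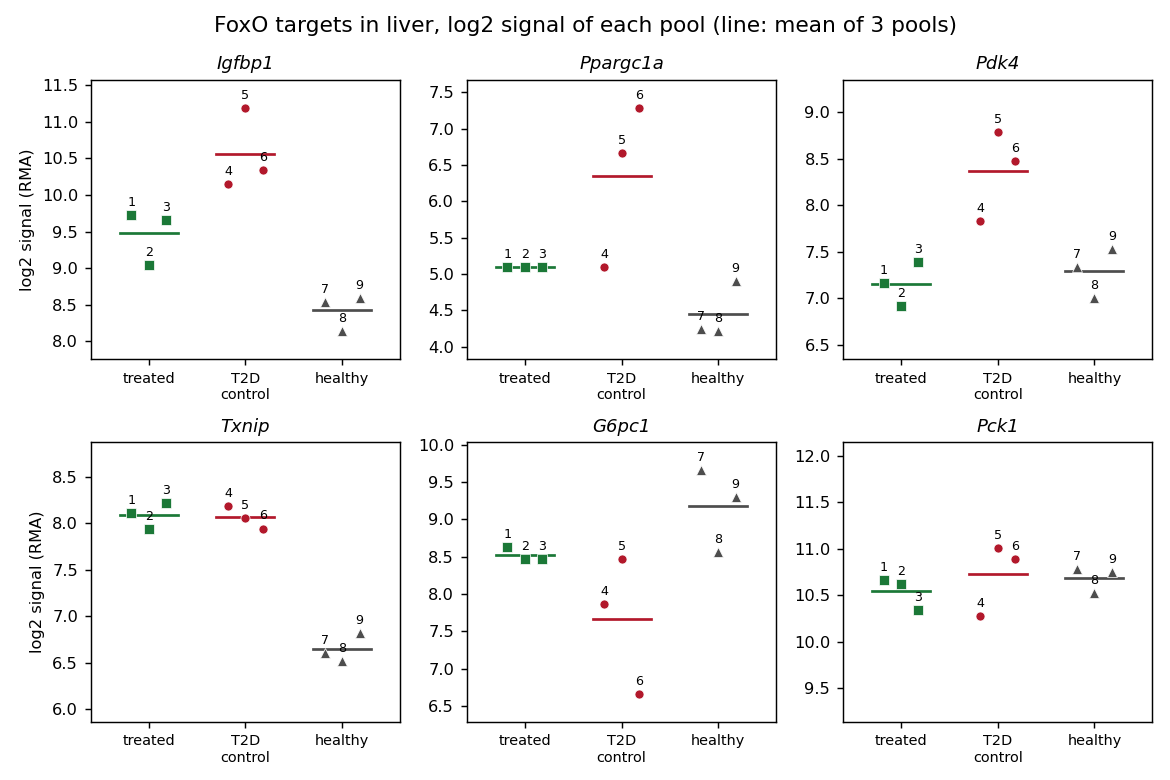
Log2 signal (RMA) of every pool, numbered, with a line at the mean of 3 pools, for 6 FoxO targets in treated, T2D control and healthy livers. Axes differ between panels. Igfbp1, Ppargc1a and Pdk4 were highest on average in T2D control livers, Txnip was level in both diabetic groups above healthy, G6pc1 was lowest on average in T2D control livers, and Pck1 overlapped in all groups.

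Of the enzymes of glucose output, G6pc1 fell in T2D control livers and Pck1 was not called. G6pc1 had 8.62, 8.47 and 8.47 in treated pools, 7.86, 8.47 and 6.66 in T2D control pools and 9.66, 8.56 and 9.30 in healthy pools. It fell by 1.51 log2 in T2D control against healthy livers (SE 0.43, adjusted p = 0.0279), a call lost with only those 2 groups in the fit (0.0789) and without T2D control pool 4 (0.0573) or 6 (0.053) or healthy pool 7 (0.0871) or 9 (0.0554). Without T2D control pool 6 the difference was -1.005. The value 8.47 was the same to the last digit in treated pools 2 and 3 and T2D control pool 5. In treated minus T2D control livers G6pc1 differed by 0.86 (95% interval -0.13 to 1.85, adjusted p = 1). Pck1, which makes phosphoenolpyruvate for new glucose, had 10.67, 10.62 and 10.34 in treated pools, 10.28, 11.00 and 10.89 in T2D control pools and 10.78, 10.53 and 10.74 in healthy pools. These overlapped, and T2D control minus healthy was 0.04 (SE 0.18, adjusted p = 0.874). Of the remaining targets, Txnip, which limits glucose uptake, rose by 1.42 (SE 0.11, adjusted p = 9.93e-05) and Sesn3 by 0.95 (SE 0.10, adjusted p = 0.000465), while Bnip3, a factor of mitophagy, fell by 1.20 (SE 0.15, adjusted p = 0.000823).

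Of 8 genes of fat synthesis, glucose use and growth that respond to insulin in the liver, 1 rose and 2 fell in T2D control against healthy livers, and 4 rose and 2 fell in treated against healthy livers. Srebf1, the factor that drives fat synthesis, rose by 1.17 log2 in T2D control livers (SE 0.19, adjusted p = 0.00273) and by 0.88 in treated livers (SE 0.19, adjusted p = 0.00933). Fasn, fatty acid synthase and a target of it, fell by 1.23 in T2D control against healthy livers (SE 0.33, adjusted p = 0.0228). This call was lost with only those 2 groups in the fit (0.0657) and without T2D control pool 4 (0.0723), 5 (0.0544) or 6 (0.0598) or healthy pool 7 (0.0713). Pnpla3, a lipase-like protein of lipid droplets, fell by 0.45 in T2D control livers (adjusted p = 0.00203) and by 0.39 in treated livers (adjusted p = 0.00374), both against healthy, at signals under 5 and so close to background. Mlxipl, which encodes the glucose-sensing factor ChREBP, rose by 0.69 in treated against healthy livers (SE 0.12, adjusted p = 0.00422), and Pklr, pyruvate kinase of the liver and a ChREBP target, by 0.71 (SE 0.19, adjusted p = 0.0236). The call of Pklr was lost with only those 2 groups in the fit (0.0666), with array weights (0.0666), and without treated pool 1 (0.0544) or 2 (0.0674) or healthy pool 8 (0.0675).

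The genes most like each called member in pattern were sought among the 8575 genes whose mean log2 signal reached 5, by the root mean square difference of log2 signals over the 9 arrays after each gene was set to its own mean. The 9 points share their arrays, and these distances are a description. For Irs2 they were Sdc4 (0.18), Eppk1 (0.188) and Cdkn1a (0.199), and Cdkn1a, which arrests the cell cycle, averaged 5.82, 6.42 and 5.25 in treated, T2D control and healthy livers. For Foxo1 they were Rora (0.13), a nuclear receptor of the clock, Cpeb4 (0.158) and Dapk1 (0.181). For Foxo3 they were Chd7 (0.0471), Odr4 (0.0566) and Utp4 (0.0609), for Foxo4 Pex5 (0.0512), Acyp1 (0.0534) and Scrn2 (0.0548), and for Pik3r1 Frs2 (0.0391), Nploc4 (0.0525) and Phkb (0.0578). Frs2 is itself a docking protein of growth factor receptors. Insr and Irs1 lay 0.0709 apart, each among the 3 nearest genes of the other.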

How the data were processed

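Liver RNA pools were read on Clariom D Rat arrays. The authors made the values from the scans with RMA in Transcriptome Analysis Console 4.0.2, and the log2 signals deposited by the authors, 1 per transcript cluster, were used as they stand. The 9 columns were assigned from the sample labels, with 0 left unused, and 1738 control probe sets were left out. Symbols came from the platform annotation (23456 clusters with 1 symbol, 495 with several, 44891 with none; 1 symbol updated). The labels describe biological replicates and the methods also technical ones; were the RNA of a group's arrays shared, errors would be technical alone. No 2 arrays were identical.

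Groups were compared by lmFit and eBayes of limma 3.58.1 (R 4.3.3), all 9 arrays together, with Benjamini-Hochberg adjustment over 68842 clusters. The scripts were tested on simulated data. All 10 members were named, with genes from among the 4 called genes of smallest p in each list and comparison, and Igfbp1, G6pc1, Pck1, Ppargc1a and Pdk4. Members and lists were chosen with earlier results of these data known. The 18 alternatives were other fits, scalings, filters and each pool left out in turn. Plots used matplotlib 3.10.9 (python 3.11.15).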

Additional observations from a re-analysis of the deposited data

How the results depend on the processing

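The count of members that rose in T2D control over healthy livers was 4 as reported, 2 with only the 2 groups compared in the fit, 3 with quantile normalization, 5 with centring over all clusters, which added Akt1, and between 2 and 4 when 1 pool was left out (2 without T2D control pool 5 or 6). The count that fell was 1 as reported and 2 with quantile normalization, which added Akt2 at -0.18 log2 (adjusted p = 0.0434). In treated over healthy livers 2 rose as reported, 0 with only those 2 groups in the fit, 1 with quantile normalization, 1 with median centring over clusters of at least 5, 3 with centring over all clusters or over clusters with 1 symbol, both of which added Akt1, and between 0 and 3 when 1 pool was left out (0 without each treated pool, 1 without T2D control pool 5 or 6 or healthy pool 7, 3 without healthy pool 9, which added Foxo1).

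Among differences that were not called, the sign changed as follows. In T2D control minus healthy livers quantile normalization gave -0.0346 for Akt1, -0.0742 for Irs1, -0.235 for Pck1 and 0.0915 for Grb10, centring over all clusters gave 0.0919 for Akt2 and 0.117 for Grb10, centring over clusters of at least 5 gave -0.0111 for Akt1, -0.0781 for Irs1 and -0.0854 for Pck1, and array weights gave -0.136 for Irs1, -0.00686 for Pck1 and 0.00026 for Grb10. In treated minus T2D control livers quantile normalization gave 0.00397 for Pik3r1 and -0.00405 for Grb10. In treated minus healthy livers quantile normalization gave -0.0841 for Akt2 and 0.0875 for Grb10, centring gave -0.0739 for Akt2 (clusters of at least 5) and 0.124 for Grb10 (all clusters), and array weights gave -0.018 for Akt2 and 0.00026 for Grb10. With 1 pool left out, T2D control minus healthy ran from -0.0717 (without healthy pool 8) to 0.00937 (without healthy pool 7) for Akt2, from -0.00353 to 0.00341 for Grb10, from -0.0905 (without healthy pool 8) to 0.33 for Insr, from -0.1998 (without healthy pool 8) to 0.177 for Irs1 and from -0.0998 (without T2D control pool 5) to 0.262 for Pck1. Treated minus healthy ran from -0.015 (without healthy pool 8) to 0.066 for Akt2, from -0.00353 to 0.00341 for Grb10 and from -0.0116 (without healthy pool 8) to 0.366 for Irs1.

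The cause of these changes was not tested. Array medians over all clusters differed by -0.117 log2 in T2D control minus healthy and over the brighter clusters by 0.125. Each member has 1 cluster, so the mean over clusters equals the reported value. No paired analysis was possible because the pools carry no shared numbers. Having 3 arrays per group, and identical deposited values between arrays for Foxo3, Ppargc1a, Grb10, Irs2 and G6pc1 among others, limits the precision.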
